A study of Mus musculus with 4 samples.

Results

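Cycling mononuclear phagocytes, the Csf1r- and Lyz2-expressing cells of the tumor that also carry transcripts of cell division, were chosen by a rule on raw UMI counts (unique molecular identifiers, each standing for 1 captured transcript). A member had at least 1 UMI each of Mki67, Top2a and Csf1r, at least 10 UMIs of Lyz2 per 10000, fewer than 300 UMIs of S100a8 and S100a9 together per 10000, no UMI of Cd3d, Cd3e or Cd3g, and fewer than 40000 UMIs in all. The rule found 56 of the 28429 cells that the authors kept, or 0.197%, and 56 of the 2946 cells that passed every gate other than Mki67 and Top2a, which are called phagocytes here. Those outside the 56 are called the phagocytes outside the cycle, or other phagocytes. The cells came from EO771 tumors, a mouse mammary carcinoma line of C57BL/6 origin, grown in the mammary fat pad of female mice to 1.5 cm3 and sorted for CD45, the surface protein of leukocytes. The age of these mice was not given in the sources used here. There were 2 tumors from Csf1rfl/fl mice, whose Csf1r gene is flanked by loxP sites and intact, and 2 from Lyve1CreCsf1rfl/fl mice, in which Cre under the Lyve1 promoter removes Csf1r from cells that express or have expressed Lyve1, including lymphatic endothelium. Each of 2 Chromium runs held 1 tumor of each genotype, told apart by a hashtag antibody. The labels do not say more about how the animals of a genotype were related.

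Tumor macrophages are replaced both by monocytes that arrive from the blood and mature and by division of macrophages already in the tissue. Csf1r is the receptor for the growth factors Csf1 and Il34 and gives most mononuclear phagocytes their signal to survive and divide. A dividing cell first makes the enzymes that copy DNA, such as the Mcm helicase and Pcna, together with histones, and later makes cyclins, kinesins and spindle proteins for mitosis. Mki67 coats mitotic chromosomes and Top2a untangles replicated DNA, so both are most abundant late in this sequence.

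Much of this timing is written in gene promoters, so the 150 bases before the start site are shown for 1 of the genes that set the rule, for a mitotic cyclin and the kinase it activates, and for a subunit of the replicative helicase. The sequences are from RefSeq on GRCm38.p6, and capitals mark matches on either strand to CCAAT, the box bound by NF-Y, to TTTGAA or TTCGAA, the core of the cell cycle homology region, and to TTTCGCGC, TTTGGCGC, TTTCCCGC or TTTGCCGC, forms of the E2F site.
Top2a (chr11:99024190-99024339, minus strand): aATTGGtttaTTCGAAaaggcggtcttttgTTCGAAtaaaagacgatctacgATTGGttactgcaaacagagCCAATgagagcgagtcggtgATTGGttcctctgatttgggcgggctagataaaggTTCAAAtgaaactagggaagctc
Ccnb2 (chr9:70421555-70421704, minus strand): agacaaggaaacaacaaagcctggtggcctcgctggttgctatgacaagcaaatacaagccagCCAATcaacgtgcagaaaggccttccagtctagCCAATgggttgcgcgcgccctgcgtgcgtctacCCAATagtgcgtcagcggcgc
Cdk1 (chr10:69352913-69353062, minus strand): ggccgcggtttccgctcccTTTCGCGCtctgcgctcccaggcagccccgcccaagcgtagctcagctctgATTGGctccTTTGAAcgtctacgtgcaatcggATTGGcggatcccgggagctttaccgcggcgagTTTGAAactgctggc
Mcm5 (chr8:75109359-75109508, plus strand): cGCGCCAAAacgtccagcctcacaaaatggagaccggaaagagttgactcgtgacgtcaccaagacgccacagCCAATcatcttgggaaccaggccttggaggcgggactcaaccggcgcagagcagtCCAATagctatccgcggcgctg

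Top2a held 4 CCAAT boxes and 3 matches to the homology region in these 150 bases, Ccnb2 held 3 CCAAT boxes, Cdk1 held 2 CCAAT boxes, 2 homology matches and 1 E2F form, and Mcm5 held 2 CCAAT boxes and 1 E2F form. Among 33 such windows of 31 genes from a list of 36 mitosis genes, 72.7% held CCAAT and 27.3% held both CCAAT and a homology match. Among 29 windows of 26 genes from a list of 30 replication genes, 58.6% held CCAAT, 0% held both and 20.7% held an E2F form. Over all 32851 windows these shares were 24.5% for CCAAT, 2.43% for both and 1.24% for an E2F form. These are matches of letters and describe the windows.

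The Csf1rfl/fl tumors had 29 members among 1130 phagocytes in run 1 and 13 among 930 in run 2. The Lyve1CreCsf1rfl/fl tumors had 10 among 533 in run 1 and 4 among 353 in run 2. As a share of phagocytes this was 2.57% (95% exact binomial interval 1.73% to 3.67%) and 1.40% (0.746% to 2.38%) in Csf1rfl/fl, and 1.88% (0.903% to 3.42%) and 1.13% (0.310% to 2.88%) in Lyve1CreCsf1rfl/fl. These intervals cover counting error only. The rule asks for a UMI of Csf1r, the gene that Cre removes. Cells without one, whether by deletion or by depth, enter no count of members or phagocytes, in shares and gates alike. The ranges of the genotypes overlapped, with means of 1.98% ± 0.826 and 1.50% ± 0.525 (SD, n = 2 tumors each). Within each run the Lyve1CreCsf1rfl/fl tumor had the lower share, by a log2 ratio of -0.45 in run 1 and -0.30 in run 2. The mean difference of -0.38 on the log2 scale gave p = 0.667 in a two-sided exact permutation test over tumors, a design that cannot go below p = 0.333. Without the Csf1rfl/fl tumor of run 1 the log2 difference was 0.061. Without cells holding more than 2 UMIs of another cell type's markers the shares were 2.18% and 1.19% in Csf1rfl/fl and 1.24% and 0.336% in Lyve1CreCsf1rfl/fl, a log2 difference of -1.32 (exact permutation p = 0.667). Without cells called doublets by Scrublet, which scores cells by their likeness to simulated doublets, they were 1.20%, 1.22%, 0.915% and 0%, from 11, 10, 4 and 0 members. As a share of all kept cells members were 0.336% and 0.167% in Csf1rfl/fl and 0.138% and 0.0838% in Lyve1CreCsf1rfl/fl. These did not overlap, at a log2 difference of -1.14 (exact permutation p = 0.333, the smallest the design allows), and phagocytes as a whole were 1130 of 8624, 930 of 7786, 533 of 7248 and 353 of 4771 kept cells in the same order.

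**Figure D1:**
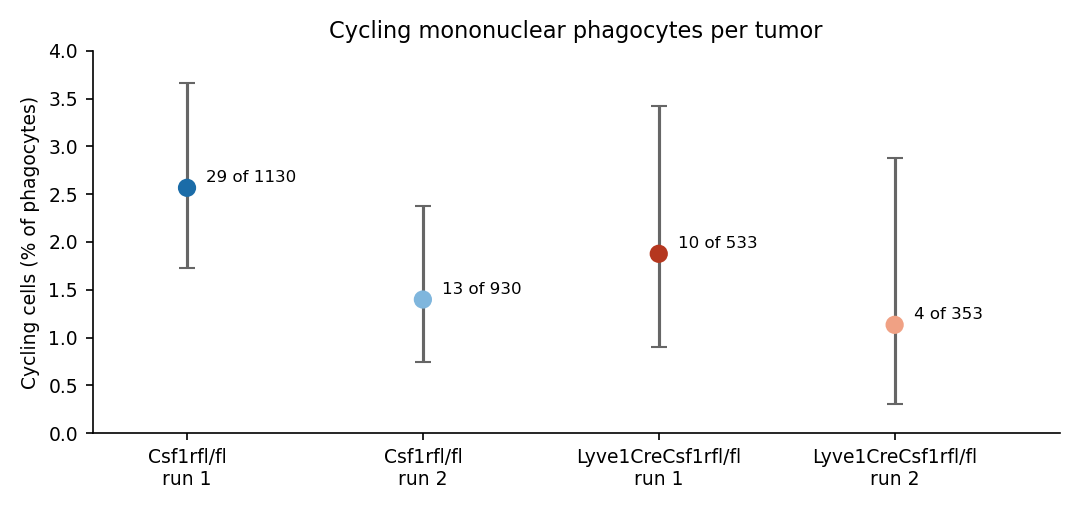
Cycling cells as a percent of phagocytes (y axis) in each of the 4 tumors (x axis), with the count beside each point and bars for the 95% exact binomial interval of counting error. The shares lie between 1.13% and 2.57%, and both run 1 tumors lie above both run 2 tumors. Scrublet called 21.3% of all kept cells in run 1 and 12.8% in run 2. Without these calls the shares in runs 1 and 2 were 1.20% and 1.22% in Csf1rfl/fl, and 0.915% and 0% in Lyve1CreCsf1rfl/fl.

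Members were large in transcript content. Their median was 12212 UMIs (range 3797 to 30614) and 3044 genes, against 5150 UMIs and 1790.5 genes in the phagocytes outside the cycle. Since a deeper cell has a better chance to show a UMI of both Mki67 and Top2a, the share was also taken after each cell was thinned to 3000 UMIs. It was then 1.09% and 0.810% in Csf1rfl/fl and 0.990% and 0.893% in Lyve1CreCsf1rfl/fl, or 18 members among 1879 phagocytes, with 397 shallower phagocytes left out. The same pair of transcripts was also counted in neutrophils, which do not divide once mature. Of 5199 cells at or above 300 UMIs of S100a8 and S100a9 per 10000 without a Cd3 UMI, 0.404% had both Mki67 and Top2a, at a median depth of 2249 UMIs. These 21 cells had a median of 9461 UMIs, and 90.5% of them were called doublets by Scrublet. At 3000 UMIs that share was 0.703%, against 0.958% of thinned phagocytes. In the thinned Csf1rfl/fl tumor of run 1 the neutrophil share of 1.45% was above the phagocyte share of 1.09%, and the thinned share cannot be read as expression there.

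The mitosis list does not hold Mki67 or Top2a. Its gene Hmgb2 had 1890 UMIs in the members, against 216 for the next gene, Ube2c, and was seen in 71.9% of other phagocytes. Sums of the list, here and below, rest in large part on Hmgb2. Members had a median of 74 UMIs of the list (range 0 to 269), and 46 of 56 had at least 20. The 21 neutrophil-gate cells with both Mki67 and Top2a had a median of 37. Among the 2685 phagocytes with neither Mki67 nor Top2a the median was 2 UMIs and 25 cells, or 0.931%, had at least 20. The 291 phagocytes outside the cycle that had at least 10000 UMIs had a median of 5. At the edge of the rule, the 8 members with exactly 1 UMI each of Mki67 and Top2a had a median of 10 mitosis UMIs. Just outside it, 104 phagocytes with Mki67 alone had a median of 4.5 and 101 with Top2a alone a median of 4, although single cells reached 86 and 91. Thus 5 members had fewer than 5 mitosis UMIs, and a few phagocytes left outside had many.

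Members differed in their balance of replication and mitosis transcripts. Replication genes summed to a median of 16 UMIs per member (range 1 to 118), and 14 of 56 members had more replication than mitosis UMIs. These 14 were 4 of 29 and 8 of 13 members in the Csf1rfl/fl tumors of runs 1 and 2, and 2 of 10 and 0 of 4 in the Lyve1CreCsf1rfl/fl tumors. Replication-dependent histone genes, whose transcripts mostly lack a poly(A) tail and are caught in part by a poly(A) method, reached 349 UMIs in 1 member and 50 or more in 24 of 56. Median histone UMIs per member were 21 and 6 in the Csf1rfl/fl tumors and 41 and 50.5 in the Lyve1CreCsf1rfl/fl tumors, in run order. The Csf1rfl/fl tumor of run 2 was thus the lowest for histones. On the replication list, by contrast, it had the highest median, at 33.5 per 10000 against 8.15 in the Csf1rfl/fl tumor of run 1. It had the lowest mitosis median, at 27.97 against 73.3. The Lyve1CreCsf1rfl/fl tumors lay between for replication, at 14.4 and 17.2, and had mitosis medians of 68.2 and 69.9.

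**Figure D2:**
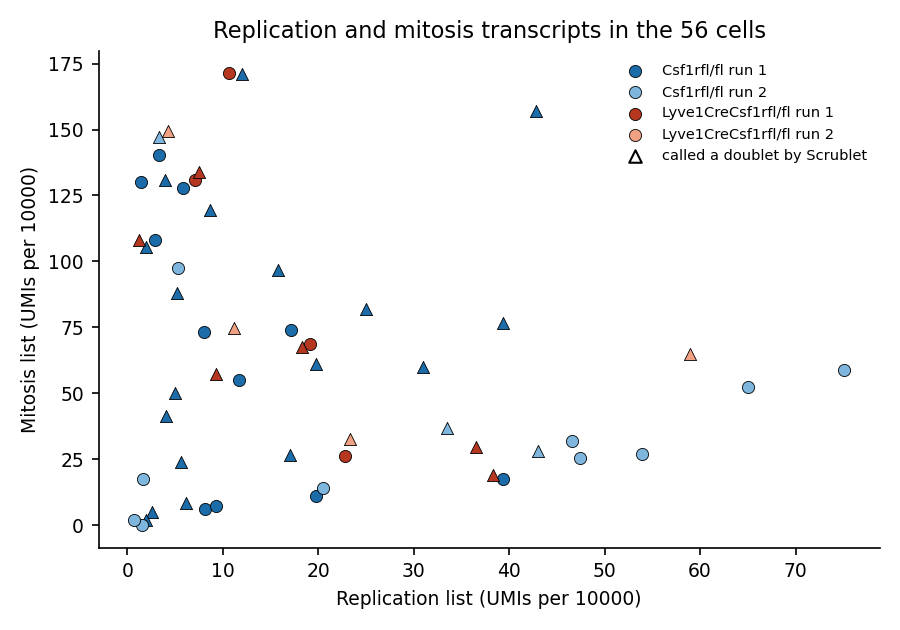
UMIs per 10000 of the replication list (x axis) and of the mitosis list (y axis) in each of the 56 members, coloured by tumor, with triangles for cells that Scrublet called doublets. Most cells with the highest mitosis sums have few replication transcripts, with 1 exception at the upper right, and 8 of the 13 members of the Csf1rfl/fl tumor of run 2 have more replication than mitosis UMIs.

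Of the genes of mononuclear phagocytes that the rule did not use, some were detected in most members and others in a minority. Cd68, a lysosomal protein of macrophages, was seen in 50 of 56 cells, Fcgr1 (the high-affinity IgG receptor) in 50, Itgam (CD11b) in 46 and Ccr2, the receptor that brings monocytes into tissue, in 41. Adgre1 (F4/80) was seen in 17 of 56 (30.4%, against 27.0% of other phagocytes), the fractalkine receptor Cx3cr1 in 14 and Mertk, a receptor for dying cells, in 5. The data went against the label in part of the cells. Scrublet called 31 of 56 members (55.4%), against 14.9% of other phagocytes. By tumor the calls were 18 of 29 and 3 of 13 in Csf1rfl/fl and 6 of 10 and 4 of 4 in Lyve1CreCsf1rfl/fl, so that no member of the Lyve1CreCsf1rfl/fl tumor of run 2 was free of one. Among cells of at least 10000 UMIs the calls were 62.5% of 32 members and 47.8% of 291 other phagocytes.

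Marker lists of other leukocytes told which genes came along. More than 2 UMIs of a list of another cell type, neutrophil genes apart, were found in 17 of 56 members (30.4%) and in 10.3% of other phagocytes, or in 46.9% and 38.8% of those with at least 10000 UMIs. Natural killer genes led, with 818 UMIs in the members and more than 2 in 9 of them, and all 9 were Scrublet calls. The 6 genes of that list were all detected, with Gzma, a granule protease, at 408 UMIs, and 324 of the UMIs of the list lay in 1 member of the Lyve1CreCsf1rfl/fl tumor of run 2. Per 10000 UMIs the list stood at 12.0 and 1.04 in the members of the Csf1rfl/fl tumors and at 0.815 and 63.3 in those of the Lyve1CreCsf1rfl/fl tumors, against 1.41 to 4.09 in other phagocytes. Of the T cell list only Cd3d, Cd3e and Cd3g were at 0, by the rule, and 4 members had more than 2 UMIs of its other genes. B cell and mature dendritic lists passed 2 UMIs in 3 members each, the endothelial list in 5, the plasmacytoid list in 2 and the stromal or tumor list in 1. Erythroid and mast cell or basophil genes were at 0 in the members. The neutrophil list had 1689 UMIs in the members, 5 of which had more than 150. The part of 2 cells in 1 droplet in these results was not tested.

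Gates on 4 sets of lineage genes divided the members further. A gate is a range of expression and not a cell type, and gates may overlap. At 10 or more UMIs per 10000 of Ly6c2, the marker of inflammatory monocytes, were 33 of 56 members (58.9%) and 71.9% of other phagocytes. At 10 or more per 10000 of C1qa, C1qb and C1qc together, the subunits of complement C1q made by mature macrophages, were 13 members (23.2%) and 14.3% of others. At 150 or more of the antigen-presentation genes H2-Aa, H2-Ab1, H2-Eb1 and Cd74 were 8 members (14.3%) and 12.8% of others. At 10 or more of Arg1, Mmp12 and Gpnmb, genes of lipid-laden and tissue-remodelling tumor macrophages, were 2 members (3.57%) and 3.67% of others. Within a factor of 1.5 of the level lay 18 members for Ly6c2, 1 for C1q, 6 for antigen presentation and 2 for the last gate. No gate took in 8 members.

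At the gate levels C1q and Ly6c2 marked nearly separate members, as only 1 cell was in both gates. Some other C1q members lay just under the Ly6c2 level of 10, at 6.88 to 8.95 per 10000, so the separation depends on the level. The 13 members of the C1q gate were 6 and 5 cells of the Csf1rfl/fl tumors and 2 and 0 of the Lyve1CreCsf1rfl/fl tumors, with a median of 14913 UMIs. Apoe, a lipid carrier of macrophages, was seen in 10 of the 13 and Adgre1 (F4/80) in 10. Mrc1 (CD206, a mannose receptor of resident macrophages) was seen in 7 and Folr2, a folate receptor of perivascular macrophages, in 4. Monocyte genes were present in many of the same 13 cells, with Ly6c2 seen in 9, Plac8 in 9 and Ccr2 in 7. The 32 members of the Ly6c2 gate outside the C1q gate had a median of 7968 UMIs and showed Plac8 in 32, Ccr2 in 26 and Hp (haptoglobin) in 24, with Mrc1 in 1 and Folr2 in none. Lyve1 itself had no UMI in any of the 56 members, which allows up to 5.36% of cells with a UMI and sets no limit on cells that express the gene, and 1 UMI in the 2890 phagocytes outside the cycle. Cd163 was at 0 too.

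**Figure D3:**
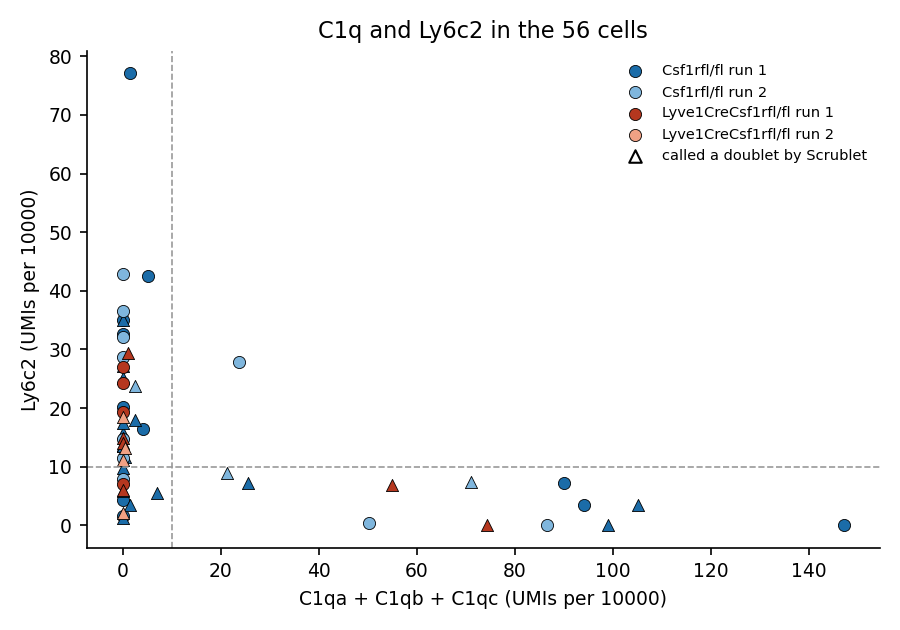
UMIs per 10000 of C1qa, C1qb and C1qc together (x axis) and of Ly6c2 (y axis) in each of the 56 members, coloured by tumor, with triangles for Scrublet calls and dashed lines at the gate level of 10. The cells follow the axes, with 13 to the right of the vertical line, 33 above the horizontal line and 1 beyond both. Some of the 13 lie just under the horizontal line.

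The C1q members had the higher median of replication transcripts for their size. It was 31.0 replication UMIs per 10000 (range 5.57 to 53.9), against 8.39 (0.705 to 75.1) in the Ly6c2 members. Their median of mitosis UMIs was 27.97 per 10000, against 71.0. Within tumors the mitosis median was 40.8 against 79.3 in the Csf1rfl/fl tumor of run 1, 27.97 against 25.6 in that of run 2 and 43.4 against 88.4 in the Lyve1CreCsf1rfl/fl tumor of run 1, so the run 2 tumor did not share the direction. Within tumors the median for replication was 17.1 against 8.11 in the Csf1rfl/fl tumor of run 1, 43.1 against 3.27 in that of run 2 and 28.3 against 9.96 in the Lyve1CreCsf1rfl/fl tumor of run 1, with 6, 5 and 2 C1q members. The ranges of single cells overlapped, cells of 1 tumor are not replicates, and the C1q members were the deeper cells. In the 5 C1q and 13 Ly6c2 members with neither a Scrublet call nor more than 2 UMIs of another type, the medians were 20.5 and 8.15 replication UMIs per 10000.

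Among all phagocytes of the C1q gate, 13 of 426 were members, or 3.05% (95% exact interval 1.63% to 5.16%), and among those of the Ly6c2 gate 33 of 2110, or 1.56% (1.08% to 2.19%). By tumor the shares were 3.08% and 3.45% in the C1q gate and 1.98% and 1.20% in the Ly6c2 gate for Csf1rfl/fl. For Lyve1CreCsf1rfl/fl they were 3.33% and 0% in the C1q gate and 1.61% and 1.14% in the Ly6c2 gate. The 0 of 26 cells allows a share of up to 11.5% by a limit of 3 counts and 13.2% by the exact interval. The C1q gate was higher in 3 of 4 tumors, by a mean of 0.981 percentage points ± 1.49 (SD, n = 4 tumors, p = 0.375, two-sided exact sign-flip permutation test, which cannot go below 0.125). Without cells that had more than 2 UMIs of another type the pooled shares were 2.60% and 1.37% and the mean difference 1.17 points (exact permutation p = 0.25). Without Scrublet calls they were 1.85% and 0.878%, and the mean difference was 0.417 points, with the C1q gate higher in 2 of 4 tumors (exact permutation p = 0.5). At 3000 UMIs per cell they were 1.40% (4 of 285) and 0.770% (11 of 1428). Among cells of at least 10000 UMIs, 40.6% of members and 34.4% of other phagocytes were in the C1q gate, and 43.8% and 63.2% were in the Ly6c2 gate.

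Dendritic cell genes were gathered in few members. Of the 8 in the antigen-presentation gate, 6 came from the Csf1rfl/fl tumor of run 1, 2 from the Lyve1CreCsf1rfl/fl tumor of run 1 and none from run 2. Scrublet called 7 of the 8, and none of the 8 was free of both a Scrublet call and more than 2 UMIs of another type. The 5 of them outside the C1q gate held 31 of the 32 UMIs of Xcr1, the chemokine receptor of cross-presenting dendritic cells, spread over 4 cells, and 15 of the 20 UMIs of Flt3, the growth factor receptor of dendritic precursors, spread over all 5. These 5 cells had a median of 25972 UMIs, and 4 were Scrublet calls. They also held 108 of the 221 UMIs of Irf8, a transcription factor of that lineage, and 83 UMIs of Ly6c2. Clec9a had 4 UMIs in 3 of these cells. Outside them Cd209a, a lectin of monocyte-related dendritic cells, had 8 UMIs, in 1 member of the C1q gate.

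Between the genotypes the C1q gate took in 20.7% and 38.5% of members in Csf1rfl/fl and 20% and 0% in Lyve1CreCsf1rfl/fl (two-sided exact permutation p = 0.333, the smallest the design allows, and 1 after Benjamini-Hochberg adjustment over the 4 gates). Other phagocytes of the same tumors were in the gate in 17.2%, 15.3%, 11.1% and 7.45%, in the same order. The Ly6c2 gate took in 55.2% and 61.5% of members in Csf1rfl/fl and 60% and 75% in Lyve1CreCsf1rfl/fl (exact permutation p = 0.667, adjusted p = 1). The antigen-presentation gate took in 20.7%, 0%, 20% and 0%, and the gate on Arg1, Mmp12 and Gpnmb 3.45%, 0%, 10% and 0% (exact permutation p = 1 for each). With 2 tumors against 2 no difference in these gates could have passed the threshold.

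Set against the phagocytes outside the cycle in the same tumor, members carried most of the division genes measured. Mki67 and Top2a chose the members, so this contrast is a description with no test. The log2 ratio of CPM, the share of all UMIs that a gene takes on a common scale, with 1 CPM added to each, was above 1 in 4 of 4 tumors for 233 of 9628 genes with at least 50 UMIs (2.42%) and below -1 for 155 (1.61%). The 50 UMIs were counted over members and other phagocytes together, so a gene high in members could pass through them alone. Ccnb1, for example, had 40 of its 52 UMIs in members. This limits the counts and the ranks that follow. Of the mitosis list, 25 of 29 measured genes were above 1 in all 4 tumors and none was below -1. The list medians were 4.66 and 4.14 in Csf1rfl/fl and 4.70 and 4.41 in Lyve1CreCsf1rfl/fl. Of the replication list it was 24 of 27 and none, with medians of 2.24, 3.92, 3.73 and 2.92, while the medians over all 9628 genes lay between -0.34 and 0.01. Without the 17 members and the other phagocytes with more than 2 UMIs of another type, 22 of 29 mitosis genes and 2 of 27 replication genes passed in all 4 tumors, where the Lyve1CreCsf1rfl/fl tumor of run 2 had 1 member left. Without Scrublet calls it was 24 of 29 and 17 of 27 in the 3 tumors that kept members.

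The genes with the highest ratios were the spindle protein Nusap1, at a median log2 ratio of 6.09, then Top2a at 6.04, the spindle motor Kif11 at 5.71, Mki67 at 5.59 and the cyclins Ccna2 and Ccnb1 at 5.44 and 5.33. The centromere protein Cenpf followed at 5.32, the histone Hist1h2ap at 5.22, the mitotic survivin Birc5 at 5.13 and the Pcna-binding protein Pclaf at 5.12. Nusap1 had 80 and 20 UMIs in the members of the Csf1rfl/fl tumors and 19 and 15 in those of the Lyve1CreCsf1rfl/fl tumors, against 3 to 11 in the much larger sums of other phagocytes. Its level was 216 and 130 CPM in Csf1rfl/fl members and 155 and 274 CPM in Lyve1CreCsf1rfl/fl members, and 1.05 to 3.46 CPM outside the cycle. Pcna, the sliding clamp of DNA replication, differed less, at 172, 474, 277 and 292 CPM in members against 69.96 to 101 CPM outside. Ccnb2 had 30, 0, 11 and 3 UMIs and Racgap1, a regulator of the division furrow, 39, 6, 21 and 0, so that each missed the count of 4 tumors through 1 tumor with no UMI.

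Genes of entry into the cycle, which act before replication, had list medians of 0.55, 0.40, 0.38 and -0.48. Of 18 measured genes in that list 1 was above 1 in all 4 tumors, Cdkn2c, an inhibitor of Cdk4 and Cdk6, with 11, 1, 6 and 1 UMIs. The D cyclins of G1 did not move alike, with log2 ratios between -0.18 and 1.49 for Ccnd1, between -0.46 and 0.25 for Ccnd3 and between -0.03 and -1.78 for Ccnd2. Ccne2, the cyclin of the step into replication and a gene of the replication list, was at 2.75 to 5.48. Cdkn1a (p21), an inhibitor of cyclin-dependent kinases, was below other phagocytes in 4 of 4 tumors, at -0.42 to -0.70. Maf, a transcription factor known to hold macrophages out of the cycle, was below other phagocytes in 4 of 4 tumors, at -0.16 to -2.58. Chromatin and tubulin genes were above 1 in all tumors for 11 of 14, among them H2afx at 3.42 to 4.38 and Stmn1, a regulator of microtubules, at 3.49 to 4.86.

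**Figure D4:**
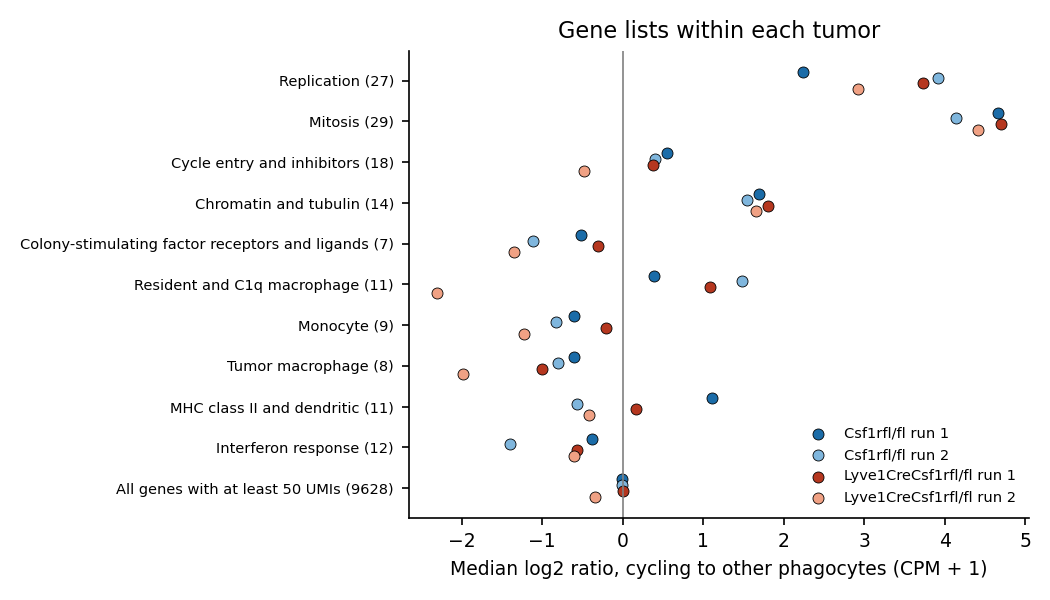
Median log2 ratio of CPM + 1 between cycling and other phagocytes (x axis) for the genes of each list with at least 50 UMIs, whose number stands in brackets (y axis), with 1 point per tumor. The replication and mitosis points lie between 2.24 and 4.70, and the resident and C1q list spans -2.31 to 1.48. The list of colony-stimulating factor receptors and ligands holds Csf1r, a gene of the rule.

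Outside the division genes, members had list medians of -0.76 for monocyte genes, -0.90 for tumor macrophage genes and -0.70 for interferon genes over the 4 tumors. Of these 3 lists only Arg1 was past 1 in the same direction in all 4 tumors. Without Scrublet calls the Lyve1CreCsf1rfl/fl tumor of run 1, left with 4 members, had medians of 0.67, -3.36 and 0.14, in the same order. Those of both Csf1rfl/fl tumors stayed below 0. Ly6c2 stood at 1229 and 1369 CPM in the Csf1rfl/fl members and at 1279 and 1132 CPM in the Lyve1CreCsf1rfl/fl members, below the 2219 to 2638 CPM of other phagocytes in each tumor. Its log2 ratios were -0.85, -0.88, -0.92 and -1.22. C1qa stood at 889, 1317 and 847 CPM in the first 3 of these tumors, against 469, 369 and 184.2 CPM in other phagocytes. In the third, the Lyve1CreCsf1rfl/fl tumor of run 1, both C1q-gate members were Scrublet calls. Without Scrublet calls the resident and C1q list medians of these 3 tumors were 0.48, 1.57 and -5.18, the last from 4 members. C1qa was also counted in the fourth tumor. There, in the Lyve1CreCsf1rfl/fl tumor of run 2, it had no UMI in the 4 members, and other phagocytes stood at 169 CPM. Apoe was higher in the summed members of all 4 tumors, by log2 ratios of 1.30, 2.19, 2.43 and 0.37, but in few cells. It was seen in 30.4% of members and 23.6% of other phagocytes, and 463 of its 504 UMIs in members lay in the C1q gate. In the Ly6c2 members outside that gate it stood at 0.759 per 10000, below the 2.15 of other phagocytes. The ratio of the fourth tumor rests on 13 UMIs in 4 members, all Scrublet calls. Arg1, the arginine-degrading enzyme of tumor macrophages, was below -1 in 4 of 4 tumors, with 1 UMI in all members together. This ratio depends on the 1 CPM added, since Arg1 had 6 UMIs outside the cycle in the Lyve1CreCsf1rfl/fl tumor of run 2, and it was seen in 1.79% of members and 1.76% of other phagocytes. The interferon list, genes induced by type I and II interferons, had medians of -0.38, -1.40, -0.56 and -0.61, and none of its 12 genes was past 1 in either direction in all tumors.

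The genes with the lowest ratios rested on few counts in members. Cxcl3, a neutrophil chemokine, had 1, 1, 0 and 0 UMIs in members against 625, 354, 657 and 32 outside the cycle, and Spic, a transcription factor of iron-recycling macrophages, 5, 2, 0 and 0 against 627, 197, 203 and 119. Inhba, a subunit of activin, had 2, 5, 0 and 0 against 185, 372, 154 and 194, and the guanylate-binding protein Gbp9 10, 4, 0 and 0 against 418, 364, 171 and 128. Ace, an enzyme of Ly6c2-low monocytes, had 8, 0, 1 and 0 against 353, 182, 109 and 163. The neutrophil genes Retnlg and Cxcr2 and the genes Xylt1, Rilpl1 and Hrh2 complete these 10, at 0 to 11 UMIs per tumor in members. With 10 CPM added in place of 1, 12 genes were below -1 in all tumors and 133 above 1.

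None of the 7 measured genes of the list of colony-stimulating factor receptors and ligands was past 1 in either direction in all 4 tumors. Csf1r is 1 of the 7, and its place in that count and in the list medians is set in part by the rule. Csf1r, which the rule requires, had 58 and 37 UMIs in the Csf1rfl/fl members and 20 and 6 in the Lyve1CreCsf1rfl/fl members, a median of 1.5 per cell, and 28 of 56 members had exactly 1. Since the rule sets a floor of 1 UMI per cell in members and other phagocytes alike and members were the deeper cells, their levels per UMI are not compared. Csf2ra and Csf2rb, the chains of the GM-CSF receptor, were seen in 43 and 34 members, and Csf3r in 27. Csf1 had 6 UMIs in 5 members and Il34 none. Kit, the stem cell factor receptor of progenitors, had 20 UMIs in 10 members, 18 of them in the Csf1rfl/fl tumor of run 1.

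Cells of a T cell gate had the higher share of cycling cells in each tumor, though the gates differ in kind. With 2 or more Cd3 UMIs as the gate, which keeps cells that also have phagocyte transcripts, the same Mki67 and Top2a rule took in 23.2% and 24.8% of T cells in Csf1rfl/fl and 20.4% and 22.8% in Lyve1CreCsf1rfl/fl. The log2 ratio of the T cell share to the phagocyte share was 3.78 ± 0.551 (SD, n = 4 tumors, higher in 4 of 4, two-sided exact sign-flip permutation p = 0.125, the smallest possible). At 3000 UMIs per cell the T cell shares were 15.6%, 23.0%, 21.3% and 22.1%, against phagocyte shares of 0.810% to 1.09%. Of the cycling cells in the T cell gate 33.6% had a UMI of Lyz2 and 14.97% one of Csf1r, and 149 cells missed the rule for members only through a Cd3 UMI, against the 56 members.

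To ask whether genotypes differed in transcripts of cycling phagocytes with a Csf1r UMI, the UMIs of the members were summed per tumor. This gave 371070 and 154087 UMIs in Csf1rfl/fl and 122719 and 54787 in Lyve1CreCsf1rfl/fl. Cells that lost the Csf1r transcript are outside these sums and outside the other phagocytes, so the tests do not cover them. No gene passed an adjusted p of 0.05 in edgeR's quasi-likelihood test among 2248 genes (0%), and 47 (2.09%) had an unadjusted p under 0.05, 20 higher and 27 lower in Lyve1CreCsf1rfl/fl. DESeq2 called none, with 11 at an unadjusted p under 0.05. The count rested on which tumors were in the fit, as 22 and 8 genes passed without the Csf1rfl/fl tumor of run 1 or run 2, and 29 and 15 without the Lyve1CreCsf1rfl/fl tumor of run 1 or run 2, where a lone tumor was assumed to vary like the pair. On simulated counts of these library sizes the test recovered 27% of genes changed 4-fold and 85% of genes changed 16-fold. Those counts had a fixed dispersion that was not estimated from these sums, so recovery in the real sums is not known. No gene of the lists passed, and 7 had an unadjusted p under 0.05. Among these Cd68 (log2 fold change -1.22), Maf (-1.41), Ccnd2 (-1.58) and Itgam (-1.20) had the lower fitted level in Lyve1CreCsf1rfl/fl, and Csf3r (1.32) and the interferon gene Ifit2 (1.23) the higher. The median log2 fold change was -1.26 over 6 tested resident and C1q genes, -0.11 over 14 replication genes and 0.19 over 21 mitosis genes, against -0.0036 over all 2248. In the first of these lists C1qa, C1qb and C1qc had 0, 1 and 0 UMIs in the Lyve1CreCsf1rfl/fl tumor of run 2, whose 4 members were all Scrublet calls. In that of run 1, C1qb stood at 522 CPM against 792 and 1103 CPM in Csf1rfl/fl, C1qc at 448 against 614 and 811, Cd68 at 179 against 391 and 435, and C1qa at 847 against 889 and 1317. Apoe at 970 against 593 and 986 CPM and Cx3cr1 at 114 against 45.8 and 201 CPM lay between the Csf1rfl/fl tumors.

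The 5 genes with the smallest p are given as not past the threshold (adjusted p = 0.9999 for each in edgeR's quasi-likelihood test). Ms4a7, a membrane protein of macrophages, had 121 and 75 UMIs in Csf1rfl/fl members and 17 and 5 in Lyve1CreCsf1rfl/fl members, or 326 and 487 CPM against 139 and 91.3 CPM. The groups did not overlap (log2 fold change -1.78, SE 0.446). Of the 121 UMIs, 42 lay in 1 cell called by Scrublet that had 66 UMIs of natural killer genes and 169 of neutrophil genes. The heme-degrading enzyme Hmox1 had 53, 86, 6 and 0 UMIs (-3.42, SE 0.914), and 79 of the 86 lay in 1 cell. The inhibitory lectin Clec4a3 had 89, 65, 13 and 4 UMIs, or 240 and 422 CPM against 106 and 73.0 CPM (-1.84, SE 0.49997), and was spread over 24 of the 29 members of the first tumor. Serpinb6b, a protease inhibitor, had 16, 0, 21 and 13 UMIs (2.79, SE 0.764), with 15 of the 21 in 1 cell that had 29 UMIs of mature dendritic genes. The matrix protein Thbs1 had 26, 11, 27 and 12 UMIs, or 70.1 and 71.4 CPM against 220 and 219 CPM (1.59, SE 0.467), and 15 of the 27 lay in 1 cell with 12 UMIs of mature dendritic genes. In these sums a lower share of cells of a kind and fewer transcripts per cell cannot be told apart. These values moved with the cells and tumors used. Without Scrublet calls the log2 fold change was -8.76 for Ms4a7 (adjusted p = 2.43e-05, edgeR, against 0.0761 to 0.9999 under its other alternatives), -0.92 for Clec4a3 and -4.16 for Hmox1, which passed (adjusted p = 0.00483). That fit had 1 Lyve1CreCsf1rfl/fl tumor of 4 members, assumed to vary like the other tumors, and a value as large as that of Ms4a7 depends on the prior count. With no filter on low counts Hmox1 (-3.45, adjusted p = 0.000508, edgeR) and Serpinb6b (2.62, adjusted p = 0.0196, edgeR) passed. Without 1 tumor it ran from -9.02 to -2.22 for Hmox1, which passed in 3 of these 4 fits, and from 2.11 to 7.45 for Serpinb6b, which also passed in 3. The ends of both ranges came without the Csf1rfl/fl tumor of run 2 (-2.22 and 2.11), the Lyve1CreCsf1rfl/fl tumor of run 1 (-9.02) and the Csf1rfl/fl tumor of run 1 (7.45). The values of -9.02 and 7.45 rest on a genotype left with 0 UMIs and depend on the prior count of the fit.

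The difference between the genotypes was also compared in members and in the phagocytes outside the cycle of the same tumors. Of 8577 genes 1 passed (0.0117%), and 271 (3.16%) had an unadjusted p under 0.05, in edgeR's quasi-likelihood test of the interaction. On simulated counts of the same fixed dispersion this fit recovered 15% of genes changed 16-fold and 0% of those changed 4-fold. The gene was Fabp4, a fatty acid carrier of capillary endothelium, adipocytes and macrophages, at a log2 difference of 8.88 (SE 1.14, adjusted p = 4.425e-05, edgeR). It had 1, 0, 199 and 0 UMIs in the members of the 4 tumors and 350, 102, 97 and 29 outside the cycle. Of the 199 UMIs, 193 lay in 1 cell of 21628 UMIs that also had 57 UMIs of Sparc and 36 of endothelial genes. Without cells holding more than 2 UMIs of another type the log2 difference was 4.60 and no longer passed, and without the tumor that held the cell it was -3.50, a value that depends on the prior count, since the members left in Lyve1CreCsf1rfl/fl had 0 UMIs. DESeq2 did not call Fabp4 (6.17, adjusted p = 0.9999). That cell was also a Scrublet call, and without Scrublet calls edgeR still called the gene (10.98), in a fit with 1 Lyve1CreCsf1rfl/fl tumor of 4 members. Those 4 members had 6 UMIs of Fabp4, all in 1 cell, so the value of 10.98 rests on that cell.

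The other 4 of the 5 smallest p did not pass (adjusted p = 0.139 to 0.390, edgeR), and these calls depended on the setting. DESeq2 called none of the 4 (adjusted p = 0.9999 for each). In edgeR all 4 passed without Scrublet calls, at log2 differences of -1.61 for Gm42418, 7.97 for Fscn1, 5.14 for Saa3 and -1.38 for Fth1, and all 4 passed without ambiguous hashtags. Without cells holding more than 2 UMIs of another type Gm42418 (-1.43, adjusted p = 0.0365) and Saa3 (3.96, adjusted p = 0.0189) passed and Fth1 (-0.59) did not. In the 4 fits that each left out 1 tumor, Gm42418 ranged from -1.14 to -0.52 and Fth1 from -1.08 to -0.55, and both missed the threshold without the Csf1rfl/fl tumor of run 2. Fscn1, the actin bundler of mature dendritic cells, had 2, 0, 32 and 0 UMIs in members (log2 difference 5.08), and 18 of the 32 lay in 1 cell. The acute-phase gene Saa3 had 30, 2, 112 and 0 (2.59), and all 112 lay in 1 cell. The ferritin chain Fth1 was spread over all 29 members of the Csf1rfl/fl tumor of run 1 (-0.71). Gm42418 (-0.71) overlaps ribosomal RNA in the genome, and its level followed the run, at 14706 and 10960 CPM in run 1 members and 54203 and 28711 CPM in run 2 members.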

How the data were processed

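Viable CD45+ cells of 4 tumors were sequenced with the Chromium Single Cell 3′ kit (v2 per the labels) in 2 runs of 26153 and 27208 barcodes. The authors aligned reads to mm10 with Cell Ranger 6.0.1 and deposited UMI counts per gene and cell, without normalization, and hashtag counts. They also deposited corrected SCTransform scores from Seurat for 18449 genes, used here only to learn which 28429 barcodes (53.3%) they kept. A deposited table gave each hashtag's tumor. Each cell took the tumor of whichever hashtag had more counts, and 11 kept cells, none a member, had equal counts and took the first tumor of their run. The runs shared 60 kept barcode sequences, none of them a member's.

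Members, lists and gates were chosen with earlier results of these data known. UMIs of the members, and of other phagocytes, were summed per tumor (n = 2 per genotype) and tested in R 4.3.3 with edgeR 4.0.16 (filterByExpr, TMM, quasi-likelihood test, Benjamini-Hochberg, threshold 0.05) for genotype and, with a term per tumor, for genotype by state. The standard error is the log2 fold change over the root of the F statistic. DESeq2 1.42.0 was an alternative. The fits were tested on simulated data with 200 changed genes and a fixed dispersion that was not estimated from these data. Shares and gates were compared by two-sided exact permutation over tumors. The p-values measure the spread between these tumors only. Runs pair the tumors by construction, as each pooled 1 of each genotype, so fits with the run as a block were made as alternatives. Doublets were called per run with Scrublet in scanpy 1.11.5 (expected rate 0.2). Cells were thinned to 3000 UMIs with a fixed seed, in Python 3.11.15 with numpy 2.4.6, and exact tests used scipy 1.17.1.

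Genes named were those of the 10 lists (replication, mitosis, cycle entry and inhibitors, chromatin and tubulin, colony-stimulating factor receptors and ligands, resident and C1q macrophage, monocyte, tumor macrophage, MHC class II and dendritic, interferon response), the 10 highest and 10 lowest of the description, and, as fewer than 3 genes passed each test and moved alike in both runs, the 5 with the smallest p. Promoter and marker genes were looked up by symbol. Some genes of the lists are not reported here.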

Additional observations from a re-analysis of the deposited data

Results flagged for a closer look

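Fabp4 differed between the genotypes in its contrast of cycling with other phagocytes by the interaction term (log2 difference 8.88), and 193 of its 199 UMIs in members lay in 1 cell. DESeq2 did not call it (adjusted p = 0.9999), and edgeR still did without Scrublet calls, that cell among them (10.98). The value of 10.98 rests on 6 UMIs in 1 cell, in the 1 Lyve1CreCsf1rfl/fl tumor that kept members. Among genes of the lists with at least 50 UMIs, E2f2 and Ccnd3 split by genotype in that contrast. Their Csf1rfl/fl tumors and their Lyve1CreCsf1rfl/fl tumors lay on opposite sides of 0. The share of all 9628 measured genes with such a split is not given here. The split alone therefore does not set E2f2 and Ccnd3 apart from other genes. E2f2, a transcription factor of cycle entry, had log2 ratios of 1.42 and 1.30 in Csf1rfl/fl and -0.96 and -4.60 in Lyve1CreCsf1rfl/fl, a difference of means of -4.14, from 14, 7, 1 and 0 UMIs. Its interaction term did not pass (unadjusted p = 0.0155, adjusted p = 1, edgeR). Ccnd3 had -0.15 and -0.46 against 0.25 and 0.17, a difference of means of 0.52, and its interaction term did not pass (unadjusted p = 0.408, edgeR). No group had enough tumors for a test of single tumors that stand apart.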

How the results depend on the processing

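No gene passed between genotypes under DESeq2 size factors, the DESeq2 test, the run as a block, without ambiguous hashtags or without cells holding UMIs of another type (a choice made after seeing the data). It was 30 with no filter on low counts, 20 without Scrublet doublets, which left 1 Lyve1CreCsf1rfl/fl tumor of 4 members, and 8 to 29 without 1 tumor, fits in which a lone tumor was assumed to vary like the others. The interaction gave 4 genes with DESeq2 size factors, 9 with no filter, 0 with DESeq2, 27 without Scrublet doublets, 5 without ambiguous hashtags, 4 without cells holding UMIs of another type and 4 to 35 without 1 tumor. Without 1 tumor its log2 difference ranged from -3.50 to 12.0 for Fabp4, -6.24 to 10.8 for Fscn1 and -7.97 to 3.61 for Saa3, turning sign without the Lyve1CreCsf1rfl/fl tumor of run 1, which held the single cells with most of these UMIs. The members then left in Lyve1CreCsf1rfl/fl had 0 UMIs of all 3, so these negative values depend on the prior count. The log2 difference in share was -1.14 over all kept cells, 0.0016 after thinning and -0.82 to 0.061 without 1 tumor, and could not be computed without Scrublet doublets, which left 1 tumor with no member. The replicate block, a mean of the within-run differences, equals the main difference by construction for the share (-0.38) and the gates, so it is no further check. Gate differences in percentage points (Lyve1CreCsf1rfl/fl minus Csf1rfl/fl) were -19.6 for C1q, -5.83 thinned and -7.42 without cells holding UMIs of another type, and turned from 9.14 to -11.3 for Ly6c2 at 1.5 times the level, and from -0.345 to 16.7 thinned, 3.10 at 1.5 times the level and 7.58 without cells holding UMIs of another type for antigen presentation. Other settings gave larger differences, at 28.3 for Ly6c2 thinned and -24.4 for C1q without ambiguous hashtags. Without Scrublet calls the C1q shares were 27.3% and 30% in Csf1rfl/fl and 0% in the Lyve1CreCsf1rfl/fl tumor that kept members. Without 1 tumor the gate differences ran from -29.6 to -9.58 (C1q) and 1.64 to 16.6 (Ly6c2). For antigen presentation they ran from -10.7 to 10, and for Arg1, Mmp12 and Gpnmb from -1.72 to 8.28. Against other phagocytes 133 genes were higher and 12 lower with 10 CPM added, 61 and 2893 thinned, 232 and 626 without Scrublet doublets and 86 and 386 without cells holding UMIs of another type. The cause of these changes was not tested, beyond fewer cells per sum. With 2 tumors per genotype the exact tests could not pass, and the sums over 4 to 29 members limited the count tests to large differences.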
